A study of Mus musculus with 12 samples.

Results

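The genes described here are the 3 SERCA calcium pumps and the channels, sensors and exporter that fill, empty and refill the calcium reserve held in the endoplasmic reticulum (ER). They were listed by symbol as Atp2a1, Atp2a2, Atp2a3, Itpr1, Itpr2, Itpr3, Stim1, Stim2, Orai1 and Atp2b1. All 10 were found among 53801 gene identifiers, and all 10 passed the filter on low counts. Messenger RNA came from C2C12, a mouse myoblast line, in 4 groups of 3 libraries. Cells with Cebpg knocked down received thapsigargin (Sh2-Thap), control cells received thapsigargin (Ctrl-Thap), knockdown cells received the solvent DMSO (Sh2-DMSO) and control cells received DMSO (Ctrl-DMSO), each for 6 h. The knockdown has a single label, Sh2, and the labels do not say what the control cells carry, so an effect of the knockdown and any other lasting difference between the cell populations cannot be told apart. HeLa stands in the growth protocol, against C2C12 in the source and cell line fields.

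Cells keep calcium in the ER far above its level in the cytosol. SERCA pumps, encoded by the Atp2a genes, move calcium into the ER. IP3 receptors, encoded by the Itpr genes, release it when phospholipase C makes inositol trisphosphate. STIM proteins sense the fall in stored calcium and open ORAI channels in the plasma membrane, which is known as store-operated calcium entry. Plasma membrane calcium pumps such as the product of Atp2b1 export calcium from the cell. Thapsigargin blocks SERCA pumps, so the store drains and ER stress follows. The protein of Cebpg, C/EBP gamma, is a basic leucine zipper factor that pairs with ATF4, a central activator of the integrated stress response. In skeletal muscle the fast-fibre pump is encoded by Atp2a1, while Atp2a2 encodes the pump of slow and cardiac muscle and, as another isoform, of most other cells.

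The libraries held 29.42 to 47.72 M reads assigned to genes, and none stood apart from its group. Gene levels stand in CPM, the counts for every M gene reads after TMM scaling of the library sizes, and changes are log2 ratios from edgeR's quasi-likelihood test with Benjamini-Hochberg adjustment over the 15828 genes tested, called at an adjusted p under 0.05. Cebpg averaged 5.66 ± 0.42 CPM in Sh2-Thap, 216 ± 4.0 CPM in Ctrl-Thap, 4.52 ± 0.72 CPM in Sh2-DMSO and 54.6 ± 5.2 CPM in Ctrl-DMSO (SD, n = 3 each), lower in both knockdown groups. All 9 myoblast markers were detected, with summed levels of 2030 to 2123 CPM in Sh2-Thap, 2111 to 2188 CPM in Ctrl-Thap, 2202 to 2324 CPM in Sh2-DMSO and 2623 to 2848 CPM in Ctrl-DMSO. These sums hide opposite moves. With thapsigargin 8 of the 9 fell in each population, where 34.4% of all genes fell in knockdown and 37% in control cells. Myf5 rose, from 73.7 to 417 CPM on average in knockdown cells and from 61.8 to 252 CPM in control cells. Pax7 was rare, at most 1.53 CPM in a group mean. Summed leukocyte, epithelial and adipocyte markers reached at most 6.93, 9.09 and 1.89 CPM in any library, and endothelial markers 32.3 CPM. Whether replicates are separate cultures is not stated, and the p-values then cover only library-to-library spread, which may be technical. In such bulk samples fewer cells of a type and less RNA per cell cannot be told apart.

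Thapsigargin moved the calcium genes in both directions. Atp2a2, Atp2a3 and Itpr2 rose in both cell populations, and Atp2b1 rose in control cells. Itpr3, Stim1, Stim2, Orai1, Itpr1 and Atp2a1 fell in both. Some of these calls were weak. Of 22 alternative fits, 13 lost the call of Atp2a1 in knockdown cells, 7 that of Orai1 in control cells and 1 that of Itpr1 in knockdown cells. In knockdown cells 3 members rose, 6 fell and 1 did not pass, where 69.8% of all genes tested were called, 35.4% up and 34.4% down. In control cells 4 rose and 6 fell, where 74.7% of all genes were called, 37.7% up and 37% down. The median log2 change of the 10 was -0.33 in knockdown cells and -0.21 in control cells, beside medians of all genes within 0.001 of 0. Libraries of the treatments did not overlap for 8 members in knockdown cells and 10 in control cells, beside 71.4% and 77.1% of all genes.

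The knockdown lowered all 3 SERCA genes under thapsigargin. With thapsigargin 3 members rose, 6 fell and 1 did not pass, where 56.9% of all genes were called, 28.5% up and 28.4% down. With DMSO 3 rose, 4 fell and 3 did not pass, where 51.5% were called, 25% up and 26.5% down. The median log2 change was -0.58 with thapsigargin and 0.01 with DMSO, beside 0.02 and 0.00 for all genes. Libraries of the cell populations did not overlap for 10 members with thapsigargin and 9 with DMSO, beside 62.1% and 57.1% of genes. The thapsigargin effect itself was tested for a difference between knockdown and control cells. That difference passed for 6 of the 10, 1 upward and 5 downward, where 35.4% of all genes passed, 17.7% in each direction.

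**Figure D1:**
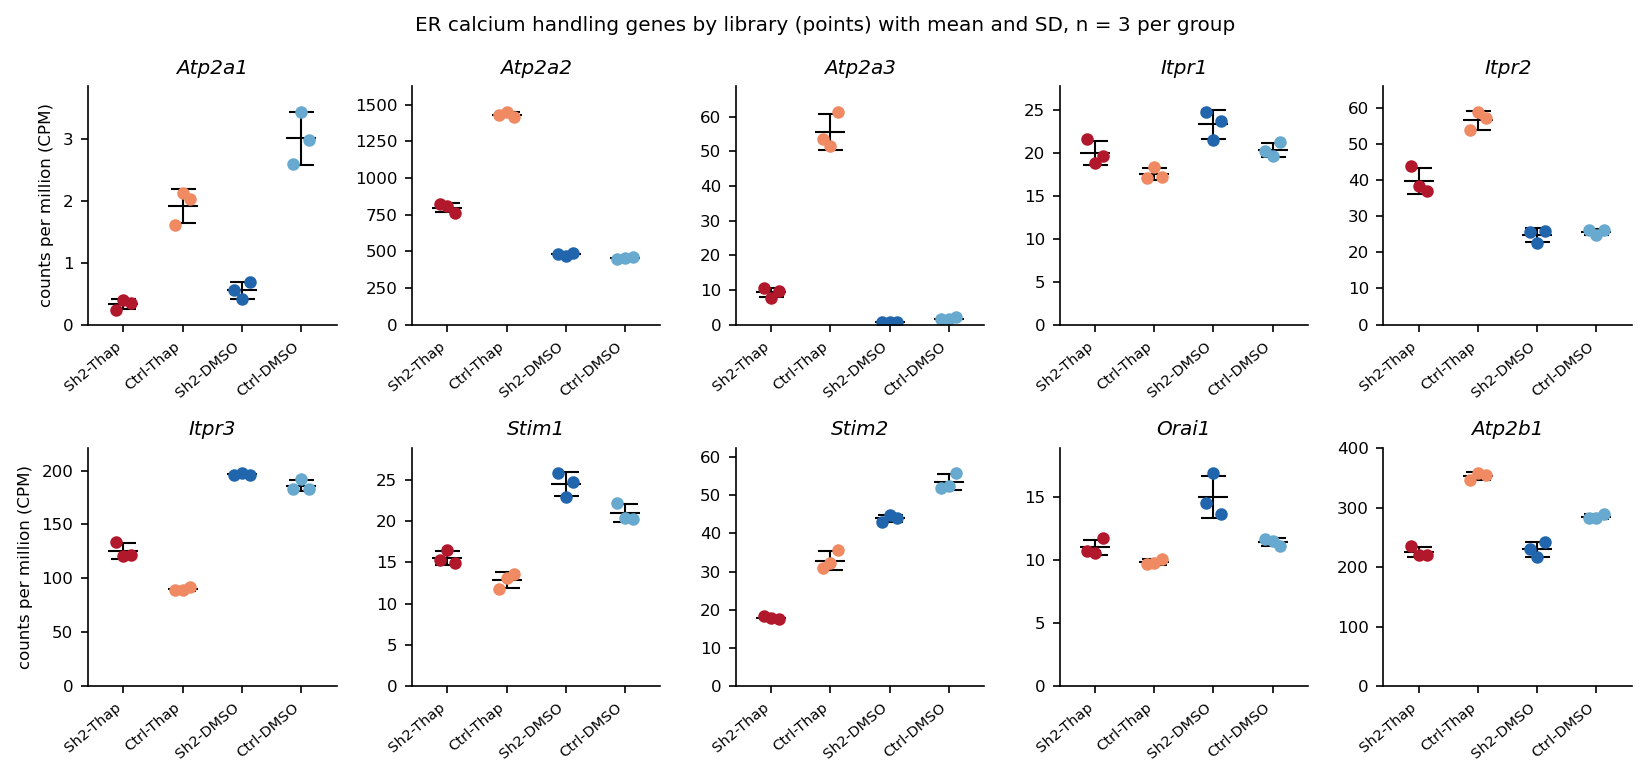
Level of each gene in CPM (y axis, from 0, own scale per gene) in the 3 libraries of each group (points), with the mean and SD. Atp2a3 stood at 51.6 to 61.5 CPM in Ctrl-Thap and under 11 CPM in every other library, and Stim2 was lowest in Sh2-Thap.

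Among the pumps, Atp2a2 was the main transcript of the family in every group. It encodes SERCA2, the direct target of thapsigargin in most cells, and lies on chromosome 5 from 122453513 to 122502225, minus strand (GENCODE vM21, GRCm38, as for all coordinates below unless stated). Atp2a2 measured 824, 808.5 and 764 CPM in Sh2-Thap and 1431, 1454 and 1415 CPM in Ctrl-Thap. It measured 485, 471 and 491 CPM in Sh2-DMSO and 449, 456 and 463 CPM in Ctrl-DMSO. The thapsigargin libraries lay above all DMSO libraries, and the control cells reached the higher level. Thapsigargin raised Atp2a2 by a log2 of 0.73 (SE 0.04, 95% interval 0.64 to 0.81, adjusted p = 1.2e-16) in knockdown cells and of 1.65 (SE 0.04, 1.57 to 1.74, adjusted p = 2e-26) in control cells, which is 1.66-fold and 3.14-fold. These effects differed by -0.93 (SE 0.06, -1.04 to -0.81, adjusted p = 2.62e-14). Under thapsigargin the knockdown lowered Atp2a2 by 1.79-fold (log2 -0.84, SE 0.04, adjusted p = 3.89e-18). With DMSO the change was 0.08 (-0.00 to 0.17, adjusted p = 0.1). It passed under upper quartile scaling, a stricter filter and DESeq2, and over 22 alternatives its adjusted p ran from 0.0361 to 0.268.

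Atp2a3 changed the most of the 10 with thapsigargin. It encodes SERCA3, a pump of lower calcium affinity known from blood cells, endothelium and epithelium, on chromosome 11 from 72961169 to 72993044, plus strand. Atp2a3 measured 10.4, 7.78 and 9.55 CPM in Sh2-Thap and 53.6, 51.6 and 61.5 CPM in Ctrl-Thap. With DMSO it measured 0.841, 0.708 and 0.665 CPM in Sh2-DMSO and 1.60, 1.55 and 2.05 CPM in Ctrl-DMSO, from 73 and 180 reads in all. No group overlapped another. The thapsigargin effect was a log2 of 3.65 (SE 0.16, adjusted p = 4.03e-19), or 12.6-fold, in knockdown cells and 5.00 (SE 0.11, adjusted p = 4.42e-27), or 31.9-fold, in control cells. It ranked 412 and 368 among the 15828 genes by signed change. The effects differed by -1.35 (SE 0.26, interval -1.88 to -0.82, adjusted p = 0.000105). The knockdown lowered Atp2a3 by 5.98-fold under thapsigargin (log2 -2.58, SE 0.09, adjusted p = 1.14e-21) and by 2.35-fold with DMSO (-1.23, SE 0.22, adjusted p = 2.09e-05). Of 5 endothelial markers, 5 rose with thapsigargin in knockdown and 4 in control cells, where 35.4% and 37.7% of all genes were called up. Their summed levels were 18.4 to 21.1 CPM in Sh2-Thap, 27.5 to 32.3 CPM in Ctrl-Thap, 5.90 to 6.96 CPM in Sh2-DMSO and 4.20 to 5.12 CPM in Ctrl-DMSO. In knockdown against control cells with thapsigargin Tek fell (log2 -0.99), Cdh5 (0.81) and Kdr (0.99) rose and 2 did not pass. With DMSO 3 rose, among them Tek (0.46), and 2 did not pass. Epithelial markers summed to 7.58 to 9.09 CPM in Sh2-Thap, 3.10 to 3.64 CPM in Ctrl-Thap, 1.21 to 1.62 CPM in Sh2-DMSO and 0.347 to 0.466 CPM in Ctrl-DMSO, with Epcam at 0 in both control groups and Krt18 at 0 in Ctrl-DMSO. Of the 6 markers 4 were tested, and these 4 were higher in knockdown than in control cells with thapsigargin. The part of these markers in the result was not tested.

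The upstream sequence of Atp2a3 is shown because this gene rose the most. RefSeq promoters on GRCm38.p6 were searched on both strands of the 250 bases before each start for 4 stress motifs. The ER stress response element ERSE is CCAAT, then 9 bases, then CCACG, and ERSE-II is ATTGG, then 1 base, then CCACG. The others were the unfolded protein response element TGACGTG and the C/EBP-ATF element TGATGNAA. A promoter was matched for 8 of the 10 genes, 9 promoters in all, with none for Atp2a2 and Itpr1. None of the 9 windows held any of the 4 motifs, which were found in 0.113%, 0.03%, 1.65% and 3.452% of all 32851 promoters. The 9 windows held 64.0% to 80.8% G and C bases, where the median of all promoters was 52.4%. The shares were not matched for this, and with 9 windows no conclusion is drawn from the absence. In the sequences printed here and below, capitals mark CCAAT and CCACG, the parts of ERSE, on either strand (as ATTGG and CGTGG on the minus strand), found in 33.85% and 28.343% of all promoters. The window of Atp2a3 lies at chr11:72960919-72961168, plus strand, and holds neither.
Atp2a3: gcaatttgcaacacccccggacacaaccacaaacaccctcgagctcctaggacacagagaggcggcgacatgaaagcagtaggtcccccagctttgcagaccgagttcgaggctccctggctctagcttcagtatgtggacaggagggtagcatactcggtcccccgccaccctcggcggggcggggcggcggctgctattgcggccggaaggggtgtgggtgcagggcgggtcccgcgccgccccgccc

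Atp2a1, the fast-fibre pump SERCA1, was rare. It lies on chromosome 7 from 126445858 to 126463108, minus strand, and shares 763 of its 3477 exon bases with Rabep2 on the other strand, so reads in that stretch cannot be assigned surely. Atp2a1 measured 0.235, 0.389 and 0.353 CPM in Sh2-Thap and 1.61, 2.13 and 2.02 CPM in Ctrl-Thap. It measured 0.550, 0.413 and 0.694 CPM in Sh2-DMSO and 2.59, 3.44 and 2.98 CPM in Ctrl-DMSO. Knockdown libraries lay below control libraries in both treatments, with 32 and 55 reads in all in Sh2-Thap and Sh2-DMSO. The knockdown lowered Atp2a1 by 5.92-fold with thapsigargin (log2 -2.57, SE 0.27, adjusted p = 8.94e-10) and by 5.40-fold with DMSO (-2.43, SE 0.23, adjusted p = 1.82e-10). Thapsigargin lowered it by a log2 of -0.77 (SE 0.34, adjusted p = 0.047) in knockdown cells and of -0.63 (SE 0.19, adjusted p = 0.00329) in control cells. The call in knockdown cells was lost in 13 of 22 alternatives (adjusted p 0.023 to 0.208). These included fits without Ctrl-DMSO replicate 3 (0.0502), Sh2-DMSO replicates 1 (0.0732) and 3 (0.208), or Sh2-Thap replicates 1 (0.177) and 3 (0.0645). The difference of the effects was -0.13 (-0.91 to 0.64, adjusted p = 0.829).

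Markers of differentiating muscle moved with the cell population beside Atp2a1. Of 12 listed genes 10 were tested, and in knockdown against control cells 6 fell, 3 rose and 1 did not pass, in each treatment. Of all genes 28.4% fell and 28.5% rose with thapsigargin, and 26.5% fell and 25% rose with DMSO. Myog, the transcription factor of terminal myogenesis, fell with the knockdown (log2 -2.63 with thapsigargin, -2.73 with DMSO), as did the slow troponin T gene Tnnt1 (-3.12 and -2.91). Skeletal actin, Acta1, rose (3.22 and 3.58), with 46.5 CPM in Sh2-Thap, 5.00 CPM in Ctrl-Thap, 85.7 CPM in Sh2-DMSO and 7.17 CPM in Ctrl-DMSO on average. The summed level of the list ran from 56.6 to 70.8 CPM in Sh2-Thap, 29.6 to 34.1 CPM in Ctrl-Thap, 88.7 to 119.8 CPM in Sh2-DMSO and 32.3 to 36.9 CPM in Ctrl-DMSO, with Myh8 at 0 in Ctrl-DMSO. The part of these genes in the result for Atp2a1 was not tested.

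Of the IP3 receptors, Itpr2 rose and Itpr3 fell with thapsigargin, and both effects were smaller in knockdown cells. Itpr2 encodes the receptor type with high IP3 affinity, on chromosome 6 from 146108299 to 146502223, minus strand. Itpr2 measured 43.8, 38.4 and 37.0 CPM in Sh2-Thap and 53.9, 59.1 and 57.1 CPM in Ctrl-Thap. With DMSO it measured 25.6, 22.5 and 26.0 CPM in Sh2-DMSO and 26.2, 24.8 and 26.2 CPM in Ctrl-DMSO. The cell populations parted with thapsigargin and overlapped with DMSO. Thapsigargin raised Itpr2 by a log2 of 0.69 (SE 0.07, adjusted p = 8.89e-11) in knockdown cells and of 1.14 (SE 0.07, adjusted p = 7.58e-17) in control cells. The difference was -0.46 (SE 0.09, -0.65 to -0.26, adjusted p = 0.000219). The knockdown lowered Itpr2 with thapsigargin (-0.51, SE 0.06, adjusted p = 1.98e-08), and with DMSO the value was -0.06 (-0.20 to 0.08, adjusted p = 0.51).

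The window upstream of Itpr2 is shown because, among the genes that rose, it was the matched promoter that held both parts of ERSE. It lies at chr6:146502224-146502473, minus strand. CCAAT stands at -170 to -166 and, on the opposite strand, at -25 to -21, counted from the base before the RefSeq start. CCACG stands at -124 to -120 on the opposite strand and at -116 to -112 and -20 to -16. The last pair adjoin with no base between them, so neither ERSE nor ERSE-II was matched.
Itpr2: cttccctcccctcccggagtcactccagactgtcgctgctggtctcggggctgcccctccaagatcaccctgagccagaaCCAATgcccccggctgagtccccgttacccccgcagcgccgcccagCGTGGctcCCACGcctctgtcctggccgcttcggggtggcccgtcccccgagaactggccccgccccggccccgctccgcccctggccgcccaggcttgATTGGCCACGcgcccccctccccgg

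Itpr3, on chromosome 17 from 27057304 to 27122223, plus strand, was the most abundant IP3 receptor transcript per length. Itpr3 measured 134, 120.3 and 122 CPM in Sh2-Thap and 89.5, 88.7 and 92.2 CPM in Ctrl-Thap. It measured 196, 198 and 196 CPM in Sh2-DMSO and 183, 192 and 183 CPM in Ctrl-DMSO. All DMSO libraries lay above all thapsigargin libraries, and the knockdown libraries lay above the control libraries within each treatment. Thapsigargin lowered Itpr3 by 1.57-fold in knockdown cells (log2 -0.65, SE 0.04, adjusted p = 1.7e-14) and by 2.06-fold in control cells (-1.05, SE 0.05, adjusted p = 4.08e-20). The difference of 0.40 (SE 0.06, 0.27 to 0.53, adjusted p = 6.12e-06) was the one positive difference among the 10 that passed. The knockdown raised Itpr3 with thapsigargin (0.48, SE 0.05, adjusted p = 8.3e-11), and with DMSO the value was 0.08 (-0.01 to 0.17, adjusted p = 0.135).

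Itpr1, the main IP3 receptor of neurons, on chromosome 6 from 108213096 to 108551109, plus strand, varied little. Itpr1 measured 21.6, 18.8 and 19.6 CPM in Sh2-Thap and 17.1, 18.3 and 17.2 CPM in Ctrl-Thap. It measured 24.9, 21.5 and 23.7 CPM in Sh2-DMSO and 20.2, 19.6 and 21.3 CPM in Ctrl-DMSO. Thapsigargin and DMSO libraries touched in knockdown cells, at 21.6 and 21.5 CPM. The thapsigargin effect was -0.22 (SE 0.07, adjusted p = 0.00722) in knockdown cells and -0.21 (SE 0.07, adjusted p = 0.00894) in control cells. Without scaling factors the first was -0.10 (adjusted p = 0.224, range over the alternatives 0.0014 to 0.224). The effects differed by -0.01 (-0.21 to 0.20, adjusted p = 0.974).

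The knockdown raised Itpr1 by a log2 of 0.19 (SE 0.07, adjusted p = 0.0256) with thapsigargin and of 0.20 (SE 0.07, adjusted p = 0.0203) with DMSO, each lost in 4 of 22 alternatives. With thapsigargin the adjusted p ran from 0.000384 to 0.173, and the call was lost with DESeq2 (0.0512) and without Ctrl-Thap replicate 1 (0.0825) or 3 (0.0742) or Sh2-Thap replicate 1 (0.173). With DMSO it ran from 0.00595 to 0.122, and the call was lost without Ctrl-DMSO replicate 1 (0.0591) or 2 (0.0622) or Sh2-DMSO replicate 1 (0.122) or 3 (0.0549).

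The sensors of the store, Stim1 and Stim2, both fell with thapsigargin, and the cell population set them apart. STIM2 responds to smaller losses of stored calcium than STIM1. Stim2, on chromosome 5 from 53998499 to 54121057, plus strand, measured 18.4, 17.9 and 17.5 CPM in Sh2-Thap and 30.8, 32.2 and 35.7 CPM in Ctrl-Thap. It measured 43.0, 44.7 and 44.1 CPM in Sh2-DMSO and 52.0, 52.5 and 55.8 CPM in Ctrl-DMSO. The 4 groups did not overlap and Sh2-Thap was lowest. Thapsigargin lowered Stim2 by 2.45-fold in knockdown cells (log2 -1.29, SE 0.06, adjusted p = 1.56e-18) and by 1.62-fold in control cells (-0.70, SE 0.06, adjusted p = 1.02e-12). The difference was -0.60 (SE 0.09, -0.77 to -0.42, adjusted p = 1.02e-06). The knockdown lowered Stim2 with thapsigargin (-0.88, SE 0.06, adjusted p = 9.4e-14) and with DMSO (-0.28, SE 0.06, adjusted p = 0.000106).

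The window upstream of Stim2 is shown as that of a gene that fell, for comparison with those of Atp2a3 and Itpr2. It lies at chr5:53998273-53998522, plus strand. It holds CCACG in 5 places and CCAAT in 1, on the opposite strand at -94 to -90, and none of the 4 stress motifs.
Stim2: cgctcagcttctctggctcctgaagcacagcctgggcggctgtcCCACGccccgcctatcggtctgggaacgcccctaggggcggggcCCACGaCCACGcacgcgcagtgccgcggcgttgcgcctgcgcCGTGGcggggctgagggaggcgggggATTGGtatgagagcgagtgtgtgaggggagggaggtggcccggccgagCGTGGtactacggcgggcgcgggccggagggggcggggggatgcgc

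Stim1, on chromosome 7 from 102267806 to 102437319, plus strand, measured 15.2, 16.5 and 14.9 CPM in Sh2-Thap and 11.8, 13.1 and 13.6 CPM in Ctrl-Thap. It measured 25.8, 22.9 and 24.7 CPM in Sh2-DMSO and 22.2, 20.4 and 20.3 CPM in Ctrl-DMSO. Here the knockdown libraries were the higher ones in both treatments, with no overlap. Thapsigargin lowered Stim1 by a log2 of -0.66 (SE 0.07, adjusted p = 1.91e-09) in knockdown cells and of -0.70 (SE 0.08, adjusted p = 4.51e-10) in control cells, and these differed by 0.05 (-0.17 to 0.26, adjusted p = 0.777). The knockdown raised it with thapsigargin (0.27, SE 0.08, adjusted p = 0.00352) and with DMSO (0.22, SE 0.07, adjusted p = 0.00932). The call with DMSO was lost without Sh2-DMSO replicate 1 (adjusted p = 0.0625, range over the alternatives 0.00456 to 0.0625).

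Orai1 encodes the pore of the store-operated channel, on chromosome 5 from 123015074 to 123030456, plus strand. Orai1 measured 10.7, 10.5 and 11.7 CPM in Sh2-Thap and 9.69, 9.74 and 10.1 CPM in Ctrl-Thap. It measured 14.5, 16.9 and 13.6 CPM in Sh2-DMSO and 11.7, 11.5 and 11.1 CPM in Ctrl-DMSO. Sh2-DMSO was the highest group and Ctrl-Thap the lowest, without overlap. Thapsigargin lowered Orai1 in knockdown cells (log2 -0.45, SE 0.09, adjusted p = 2.52e-05) and in control cells (-0.21, SE 0.09, adjusted p = 0.0285). The call in control cells was lost in 7 of 22 alternatives (adjusted p 0.0103 to 0.116). Those were RLE scaling, a stricter filter, DESeq2 and fits without Ctrl-DMSO replicate 1 (0.0725) or 2 (0.077) or Ctrl-Thap replicate 1 (0.0627) or 2 (0.0678). The difference of the effects was -0.23 (-0.48 to 0.02, adjusted p = 0.142). The knockdown raised Orai1 with DMSO (0.39, SE 0.08, adjusted p = 0.000212), and with thapsigargin the value was 0.16 (-0.02 to 0.34, adjusted p = 0.122). That value was 0.29 without scaling factors (adjusted p = 0.00469, range over the alternatives 0.00469 to 0.362).

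Atp2b1 encodes PMCA1, the widely expressed plasma membrane calcium pump, on chromosome 10 from 98914406 to 99026143, plus strand. Atp2b1 measured 235, 221 and 220.2 CPM in Sh2-Thap and 346, 358 and 355 CPM in Ctrl-Thap. It measured 231, 217 and 242 CPM in Sh2-DMSO and 282, 283 and 289.6 CPM in Ctrl-DMSO. In knockdown cells the treatments overlapped, while in control cells they did not. The thapsigargin effect was -0.03 (-0.12 to 0.06, adjusted p = 0.578) in knockdown cells and 0.31 (SE 0.04, adjusted p = 1.44e-07) in control cells, and the difference of -0.34 passed (SE 0.06, -0.47 to -0.21, adjusted p = 5.09e-05). The knockdown lowered Atp2b1 by 1.57-fold with thapsigargin (-0.65, SE 0.04, adjusted p = 2.43e-14) and by 1.24-fold with DMSO (-0.31, SE 0.04, adjusted p = 5.27e-07).

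**Figure D2:**
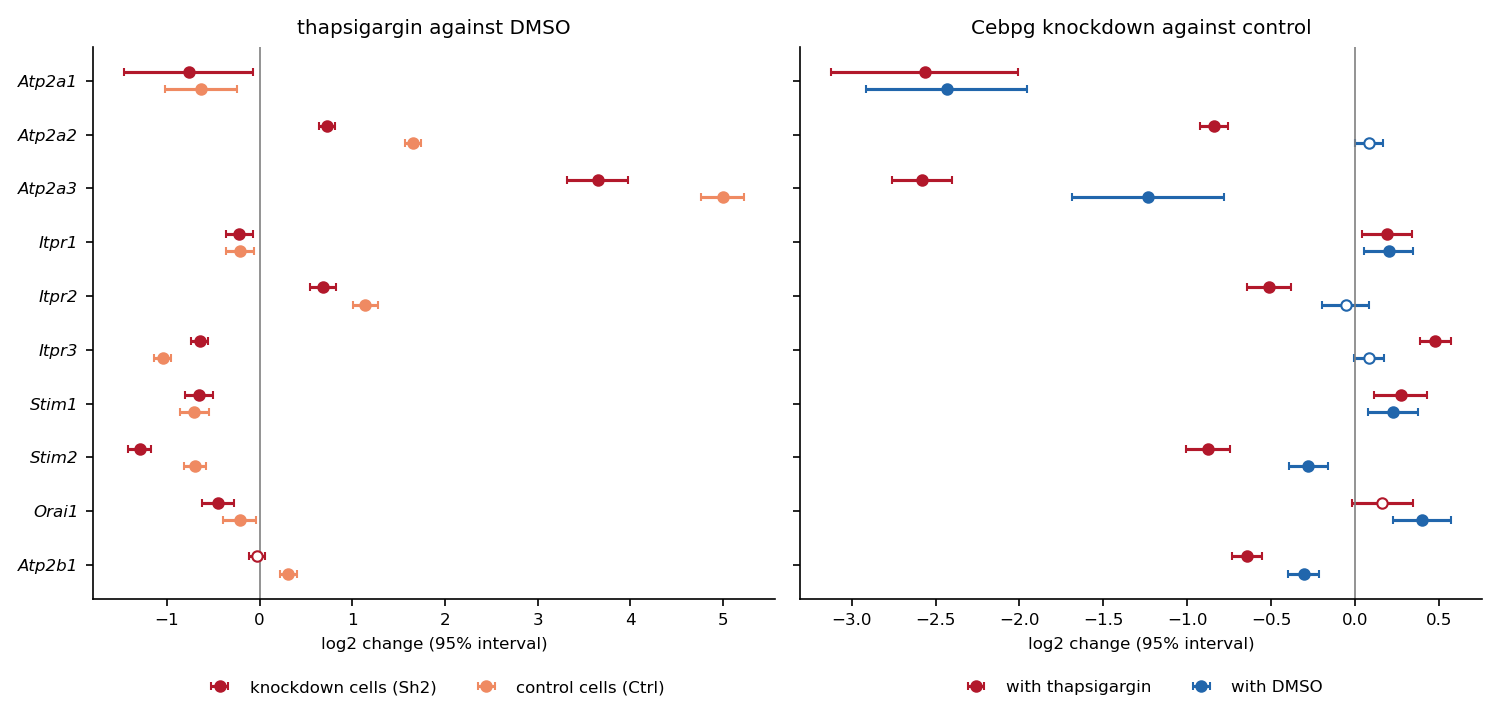
Log2 change (x axis) with its 95% interval for each gene (y axis), thapsigargin against DMSO on the left and knockdown against control on the right. Open points did not pass an adjusted p of 0.05. Atp2a3 stands at 3.65 in knockdown and 5.00 in control cells, and Atp2a1 and Atp2a3 lie lowest on the right with thapsigargin.

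The make-up of each family was compared per kilobase of exon. All annotated exons of a gene were merged for this, and which of them the cells transcribe was not tested. Summed SERCA transcripts came to 133 ± 5.1 reads per kb per M in Sh2-Thap, 247 ± 2.4 in Ctrl-Thap, 79.6 ± 1.8 in Sh2-DMSO and 76.2 ± 1.3 in Ctrl-DMSO (SD, n = 3 each). Of these Atp2a2 made up 98.6% in Sh2-Thap, 95.5% in Ctrl-Thap, 99.6% in Sh2-DMSO and 98.4% in Ctrl-DMSO. The share of Atp2a3 was 1.32% ± 0.19 in Sh2-Thap, 4.26% ± 0.44 in Ctrl-Thap, 0.176% ± 0.022 in Sh2-DMSO and 0.431% ± 0.063 in Ctrl-DMSO. The family therefore stayed nearly all Atp2a2, also where Atp2a3 was highest. These sums and shares are given as a description, with no test.

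IP3 receptor transcripts moved the other way, with sums of 17.7 ± 1.1 reads per kb per M in Sh2-Thap, 14.8 ± 0.3 in Ctrl-Thap, 24.7 ± 0.1 in Sh2-DMSO and 23.5 ± 0.5 in Ctrl-DMSO. Itpr3 made up 78.6% of them in Sh2-Thap, 67.6% in Ctrl-Thap, 88.1% in Sh2-DMSO and 87.9% in Ctrl-DMSO. Itpr2 made up 15.2% in Sh2-Thap, 25.9% in Ctrl-Thap, 6.75% in Sh2-DMSO and 7.41% in Ctrl-DMSO. The libraries of Sh2-Thap and Ctrl-Thap did not overlap in either share. For the STIM genes the sum was 4.99 ± 0.13 in Sh2-Thap, 7.65 ± 0.58 in Ctrl-Thap, 10.9 ± 0.1 in Sh2-DMSO and 12.4 ± 0.4 in Ctrl-DMSO. Stim1 made up 30.0% ± 1.2 of it in Sh2-Thap, 16.2% ± 0.5 in Ctrl-Thap, 21.6% ± 1.3 in Sh2-DMSO and 16.3% ± 1.1 in Ctrl-DMSO. The share was thus highest in Sh2-Thap and alike, within its spread, in both control groups. The per-length ratio of the ER pump Atp2a2 to the plasma membrane pump Atp2b1 was 8.87 ± 0.26 in Sh2-Thap, 10.2 ± 0.2 in Ctrl-Thap, 5.26 ± 0.18 in Sh2-DMSO and 4.01 ± 0.03 in Ctrl-DMSO.

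**Figure D3:**
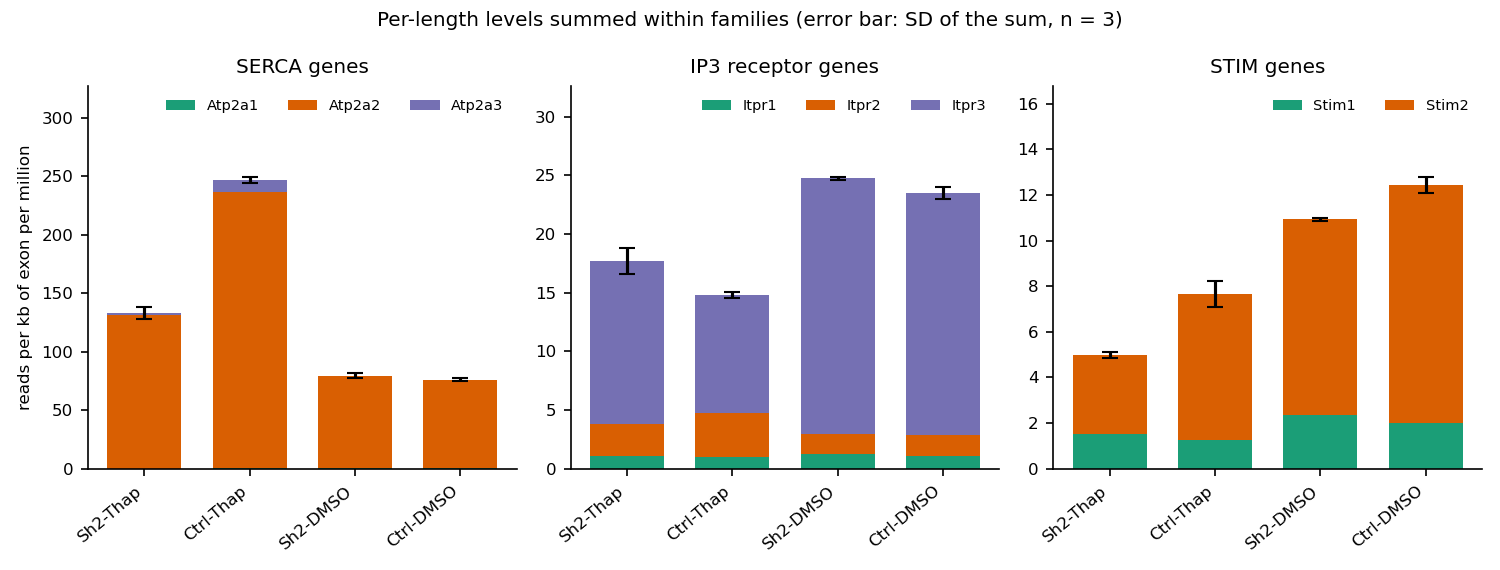
Level per kb of exon per M gene reads (y axis, from 0) of the SERCA, IP3 receptor and STIM genes in each group, stacked by gene, with the SD of the sum over 3 libraries. The SERCA sum is highest in Ctrl-Thap at 247, where the IP3 receptor sum is lowest at 14.8.

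Ranked per length among the 10 genes, Atp2a2 was highest in every group. The order depends on the merged exon length, which ran from 2295 bases for Orai1 to 18319 for Itpr1. By CPM in Ctrl-DMSO, Atp2b1 stood above Itpr3 (285 against 186) and Stim1 above Orai1 (21.0 against 11.4). In Ctrl-DMSO the order went on with Itpr3 at 20.6 ± 0.6, Atp2b1 at 18.7 ± 0.3, Stim2 at 10.4 ± 0.4, Orai1 at 4.97 ± 0.13, Stim1 at 2.02 ± 0.11, Itpr2 at 1.74 ± 0.06, Itpr1 at 1.11 ± 0.05, Atp2a1 at 0.864 ± 0.122 and Atp2a3 at 0.328 ± 0.053 reads per kb per M. In Ctrl-Thap Atp2a3, at 10.5 ± 1.0, came next after Atp2b1 and did not differ beyond its spread from Itpr3 at 9.99 ± 0.20. In Sh2-Thap Atp2a3 reached 1.75 ± 0.25, between Itpr2 at 2.68 ± 0.24 and Stim1 at 1.5 ± 0.08, and did not differ beyond its spread from Stim1.

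Related calcium genes were read from lists, by counts and medians. The changes given for them are log2 changes with thapsigargin unless another contrast or unit is named. Of all genes tested, 69.8% were called with thapsigargin in knockdown cells (35.4% up, 34.4% down) and 74.7% in control cells (37.7% up, 37% down). For knockdown against control, 56.9% were called with thapsigargin (28.5% up, 28.4% down) and 51.5% with DMSO (25% up, 26.5% down). These shares stand beside the counts of every list. Of the SERCA regulators, 5 of 10 listed genes were tested, and 2 rose and 3 fell with thapsigargin in both populations. Pdia3, an ER thiol oxidoreductase, rose by a log2 of 0.61 in knockdown and 1.47 in control cells (difference -0.86, adjusted p = 1.02e-13). Hax1, a SERCA-binding survival factor, rose by 0.77 in knockdown and 1.30 in control cells (difference -0.53, adjusted p = 4.13e-08). S100a1, a calcium sensor that stimulates SERCA in heart, fell by 0.79 in knockdown and 1.54 in control cells. The ER oxidoreductase gene Tmx1 fell by 0.53 in knockdown and 0.38 in control cells. The muscle SERCA inhibitors Pln and Sln, named after their values were seen, had 6 reads and 1 read over all 12 libraries. Strit1, Arln and Erln, like Itprip, Stimate and Sting1 of other lists, were not analysed here.

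ER release and leak genes were mixed. Of 14 tested, 3 rose and 5 fell in knockdown cells, and 6 rose and 6 fell in control cells, with median log2 changes of 0.05 and 0.06. Wfs1, the wolframin gene of the ER membrane, measured 64.1 ± 6.5 CPM in Sh2-Thap, 173 ± 11 CPM in Ctrl-Thap, 49.7 ± 1.6 CPM in Sh2-DMSO and 57.2 ± 1.2 CPM in Ctrl-DMSO (SD, n = 3 each). It rose by 0.37 in knockdown and 1.60 in control cells (difference -1.23, adjusted p = 3e-13). The ER chloride channel gene Clcc1 fell by 0.94 in knockdown and 0.92 in control cells. Pkd2, the polycystin channel, fell by 0.40 in knockdown cells and had 0.06 (adjusted p = 0.331) in control cells. In knockdown against control cells 3 of the 14 rose and 10 fell with thapsigargin, and 2 rose and 8 fell with DMSO. Of all genes 28.5% rose and 28.4% fell with thapsigargin, and 25% rose and 26.5% fell with DMSO.

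Partners of the IP3 receptors included a steep fall. Bok, a BCL-2 relative bound to IP3 receptors, measured 33.8 ± 2.5 CPM in Sh2-Thap, 13.2 ± 0.2 CPM in Ctrl-Thap, 115 ± 8 CPM in Sh2-DMSO and 95 ± 4.5 CPM in Ctrl-DMSO. Its log2 change was -1.77 in knockdown and -2.85 in control cells (difference 1.08, adjusted p = 5.49e-12). Of the paired ERLIN genes, which mark IP3 receptors for degradation, Erlin1 rose by 0.15 in knockdown and 1.01 in control cells (difference -0.86, adjusted p = 1.35e-12). Erlin2 fell by 0.55 in knockdown and 0.83 in control cells. The IP3 kinase gene Itpkc rose by 1.29 in knockdown and 0.89 in control cells. In all, 4 of 13 tested rose and 4 fell in knockdown cells, and 6 rose and 5 fell in control cells.

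Calcium binders of the ER lumen included steep rises. Hspa5, the chaperone BiP, rose by a log2 of 3.05 in knockdown and 3.61 in control cells (difference -0.56, adjusted p = 2.05e-09), and Hsp90b1, the ER form of HSP90, by 1.61 in knockdown and 2.66 in control cells (difference -1.05, adjusted p = 3.85e-15). Nucb2, a nucleobindin, rose by 1.47 in knockdown and 2.07 in control cells (difference -0.60, adjusted p = 6.27e-08). Srl, the sarcoplasmic reticulum protein sarcalumenin, fell by 1.16 in knockdown and 1.99 in control cells (difference 0.82, adjusted p = 0.00157). Of 16 tested, 6 rose and 7 fell in knockdown cells, and 8 rose and 5 fell in control cells. With thapsigargin 4 were higher and 11 lower in knockdown than in control cells, with a median of -0.45.

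Orai1 and both STIM genes fell, while the listed partners of store-operated entry moved in both directions. Of 15 listed 9 were tested, of which 5 rose and 4 fell in knockdown cells, and 6 rose and 3 fell in control cells, with medians of 0.52 and 1.18. Orai2, a second ORAI channel gene, measured 153 ± 5 CPM in Sh2-Thap, 123 ± 6 CPM in Ctrl-Thap, 106 ± 3 CPM in Sh2-DMSO and 51.3 ± 0.8 CPM in Ctrl-DMSO. It rose by 0.53 in knockdown and 1.26 in control cells (difference -0.73, adjusted p = 6.42e-11), and the knockdown raised it by 1.05 with DMSO (adjusted p = 1.64e-18). Saraf, a brake on store-operated entry, rose by 0.76 in knockdown and 1.19 in control cells. The junction gene Jph1 rose by 0.52 in knockdown and 1.18 in control cells, and Selenok, an ER selenoprotein, by 1.08 in knockdown and 1.32 in control cells. The junction gene Jph2 fell by 0.43 in knockdown and 0.99 in control cells (difference 0.55, adjusted p = 1.75e-07), and the channel gene Orai3 by 0.59 in knockdown and 0.53 in control cells. Cracr2b, a low-level transcript of at most 2.32 CPM in a group mean, fell by 2.17 in knockdown and 2.81 in control cells. Esyt1, an ER to plasma membrane tether, fell by 0.32 in knockdown cells and rose by 0.20 in control cells (difference -0.52, adjusted p = 3.88e-08).

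Among exporters other than Atp2b1, 4 of 9 rose and 4 fell in each population. Apart from Slc24a3, those that rose were near the floor, with group means of at most 0.582 CPM. Among the 5 whose mean reached 5 CPM in some group, only Slc24a3 rose. The median log2 change of these 5 was -0.45 in knockdown and -0.39 in control cells. Slc24a3, a potassium-dependent sodium-calcium exchanger, measured 30.0 ± 1.7 CPM in Sh2-Thap, 127 ± 7 CPM in Ctrl-Thap, 10.8 ± 0.6 CPM in Sh2-DMSO and 27.4 ± 1.2 CPM in Ctrl-DMSO. Slc24a3 rose by 1.48 in knockdown and 2.21 in control cells. It was lower in knockdown than in control cells with thapsigargin (log2 -2.08, adjusted p = 1.26e-24) and with DMSO (-1.34, adjusted p = 3.34e-17). Nptn, whose protein is a subunit of plasma membrane calcium pumps, fell by a log2 of 0.94 in knockdown and 1.0 in control cells. Atp2b4 fell by a log2 of 0.76 in knockdown and 0.79 in control cells, and the Golgi pump gene Atp2c1 by 0.45 in knockdown and 0.37 in control cells. In knockdown against control cells 4 of the 9 fell and 5 did not pass with thapsigargin, and 3 fell and 6 did not pass with DMSO.

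Of the ER stress reference genes, chosen with earlier results of these data known, 8 of 8 rose with thapsigargin in both populations. Their medians were 2.80 in knockdown and 3.32 in control cells, where 35.4% and 37.7% of all genes were called up. Herpud1, which serves ER-associated degradation, rose by 3.59 in knockdown and 4.87 in control cells. The CHOP gene Ddit3 rose by 3.42 in knockdown and 4.59 in control cells. The BiP cofactor genes Sdf2l1 and Dnajb9 rose by 2.87 and 2.86 in knockdown cells and by 3.50 and 3.43 in control cells. The difference of effects was negative for 7 and positive for Xbp1 (0.34, adjusted p = 1.57e-05), where 17.7% of all genes passed in each direction. With thapsigargin all 8 were lower in knockdown than in control cells, with a median of -0.87, where 28.4% of all genes fell.

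**Figure D4:**
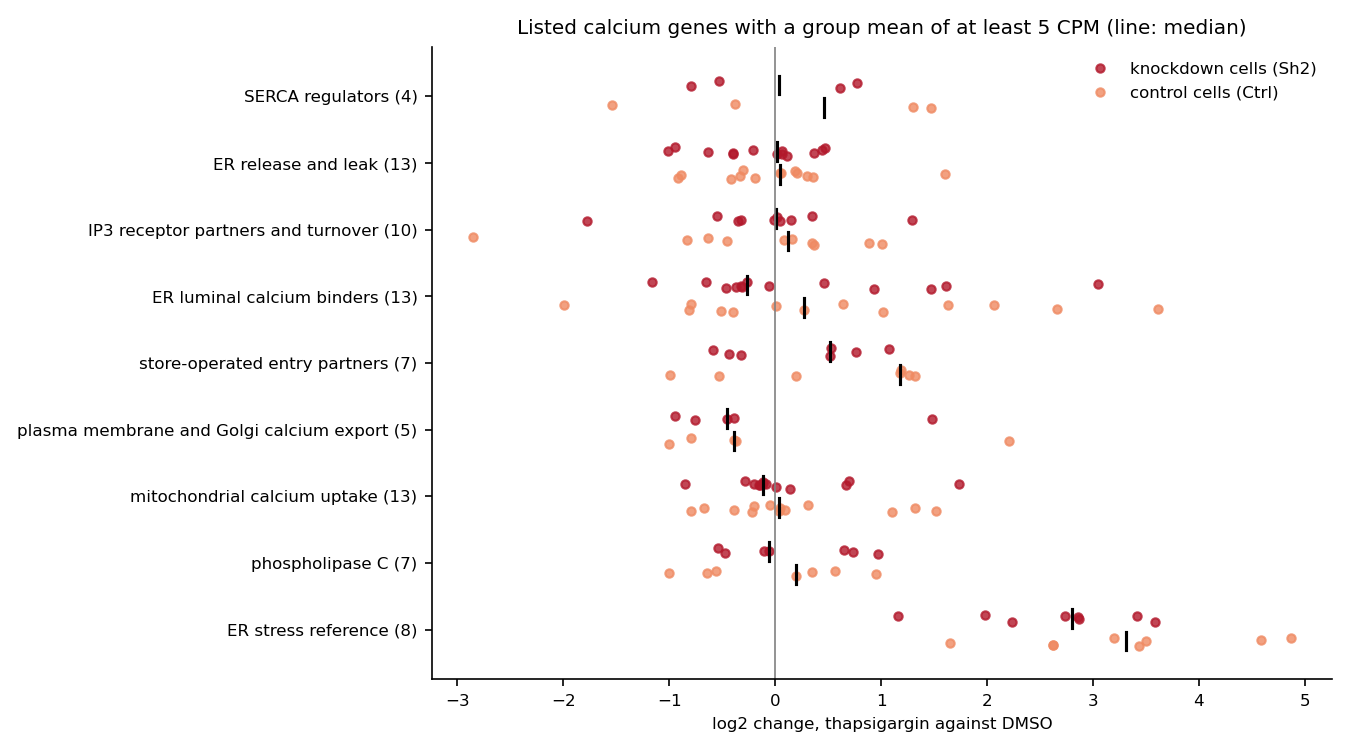
Log2 change with thapsigargin (x axis) of the listed genes whose mean reached 5 CPM in some group (points, number in brackets), in knockdown and control cells, by list (y axis), with medians as lines. The medians of store-operated entry partners are 0.52 in knockdown and 1.18 in control cells. Those of the ER stress reference are 2.80 in knockdown and 3.32 in control cells. The medians of the other lists run from -0.45 (exporters, knockdown cells) to 0.46 (SERCA regulators, control cells).

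The genes whose pattern over the 12 libraries was most like that of Atp2a2 were Stam (Pearson's r 0.9983), Stbd1 (0.9974), Tfcp2l1 (0.9971), Spata2 (0.9968) and Ssr1 (0.9962). The correlation was taken on the log2 of CPM plus 0.5, and is given as a description since the libraries share groups. Ssr1, a subunit of the translocon-associated complex of the ER, averaged 464 CPM in Sh2-Thap, 635 CPM in Ctrl-Thap, 374 CPM in Sh2-DMSO and 364 CPM in Ctrl-DMSO. Tfcp2l1 covered the widest range, with 3.17 CPM in Sh2-Thap, 29.1 CPM in Ctrl-Thap, 0.299 CPM in Sh2-DMSO and 0.212 CPM in Ctrl-DMSO. Both of its DMSO means lay under the added 0.5 CPM, so its correlation depends on that offset.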

How the data were processed

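Poly(A) RNA of 12 libraries was sequenced. The authors deposited raw read counts per gene for each library. Per the submitters' processing notes, reads were trimmed with Trim Galore and aligned with STAR 2.5.3a, and bedtools 2.31.0, DESeq2 and the builds mm10 and hg38 are named. No source used here gives the counter, annotation release or strand setting, which leaves overlapping and antisense genes uncertain. Of 53801 identifiers 53706 matched GENCODE vM21. The 5 entries that name no gene held 13.32% to 14.61% of reads and were left out.

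The counts were tested with edgeR 4.0.16 (TMM scaling, filterByExpr, robust quasi-likelihood fit of the 4 group means, 8 residual degrees of freedom), leaving 15828 genes tested and 37973 not tested. The common biological coefficient of variation was 4.67%. The SE is the absolute log2 change over the square root of F, an approximation. Intervals are 95%. Levels between genes are per kb of merged exons. The 5 comparisons were thapsigargin against DMSO in each population, knockdown against control in each treatment, and the difference of the thapsigargin effects (knockdown minus control). The scripts were tested on simulated data. Alternatives were other scalings, filters, fits, DESeq2 1.42.0, limma-voom (limma 3.58.1), a replicate block and leaving out each library. The members and lists were chosen with earlier results of these data known. Named genes were the 10 members and, of each list, at most the 4 tested genes with the largest change and a group mean of at least 5 CPM, with any gene whose thapsigargin effect went against that of most tested genes of its list. A gene that this rule names in the lists is counted there but not reported here. The 5 genes most like Atp2a2 needed a mean of 5 CPM. Software was matplotlib 3.10.9, pandas 2.3.3, Python 3.11.15 and R 4.3.3.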

Additional observations from a re-analysis of the deposited data

Results flagged for a closer look

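For 6 of the 10 genes the response to thapsigargin differed between knockdown and control cells in edgeR's test of the difference itself (knockdown minus control, adjusted p under 0.05). The same test passed for 35.4% of all genes, 17.7% in each direction. Both SERCA pump genes that rose showed a smaller rise in knockdown cells, with a difference of -0.93 for Atp2a2 and -1.35 for Atp2a3. For Itpr2 the difference was -0.46, again a smaller rise. Itpr3 fell less in knockdown cells (0.40), while Stim2 fell more (-0.60). For Atp2b1 the difference was -0.34, with a rise called in control cells and no call in knockdown cells. Each of the 6 passed in all 21 alternatives run for the difference.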

How the results depend on the processing

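Of 1090 values of the 10 genes recomputed under the alternatives, 1038 kept their direction and side of the threshold, 30 lost the call, 4 gained it and 18 changed sign. The values that changed sign were uncalled and near 0. For Atp2b1 with thapsigargin in knockdown cells they were 0.0905 without scaling factors and 0.0042 without Sh2-DMSO replicate 3 (range with a library left out -0.0753 to 0.0042). For Itpr2, knockdown with DMSO, it was 0.0055 without Sh2-DMSO replicate 2 (range -0.0982 to 0.0055). Of the differences of effects, Itpr1 gave 0.0053 with upper quartile scaling, 0.15 without scaling factors, 0.0099 without a filter and -0.0671 to 0.0369 with a library left out. Atp2a1 gave 0.0243 without scaling factors and -0.31 to 0.0723 with a library left out, and Stim1 -0.0096 to 0.0856. Omitting scaling factors moved the median of all genes to 0.12 for thapsigargin in knockdown cells, 0.149 for the knockdown with thapsigargin and 0.171 for the difference.

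Requiring an absolute log2 change of at least 1 left 3096 and 4169 genes for thapsigargin in knockdown and control cells, 1747 and 1410 for the knockdown with thapsigargin and DMSO and 859 for the difference. Of the 10 genes this left 2, 4, 2, 2 and 1, a threshold chosen for them after seeing the data. Leaving out 1 library gave 10579 to 11270, 11526 to 12130, 8314 to 9219, 7338 to 8283 and 5062 to 5446 genes, and 8 to 9, 9 to 10, 8 to 9, 5 to 7 and 6 of the 10. Replicate numbers did not pair the libraries (correlations of same-numbered deviations -0.03 to 0.077). With the number as a block, in the same order of comparisons, 11117, 11855, 9110, 8280 and 5771 genes were called, and 9, 10, 9, 7 and 6 of the 10.

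Of 4082 called values of 45 named list genes recomputed, as chosen after seeing the data, 4017 stayed called and 65 did not, and 0 changed sign. Depth limits Atp2a1, with 8 to 120 reads a library, and Atp2a3 with DMSO.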

Other observations

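Mitochondrial calcium uptake and phospholipase C genes border on the ER calcium system. Of 13 mitochondrial genes tested, 4 rose and 6 fell with thapsigargin in knockdown cells, and 4 rose and 5 fell in control cells. Of all genes 35.4% rose and 34.4% fell in knockdown cells, and 37.7% rose and 37% fell in control cells. Micu3, a regulator of the calcium uniporter, averaged 24.9 ± 2.0 CPM in Sh2-Thap, 25.9 ± 0.8 CPM in Ctrl-Thap, 7.48 ± 0.82 CPM in Sh2-DMSO and 9.04 ± 0.49 CPM in Ctrl-DMSO (SD, n = 3 each), and rose in both populations (log2 1.74 in knockdown and 1.52 in control cells). The uniporter pore gene Mcu rose by 0.70 in knockdown and 1.10 in control cells (difference -0.40, adjusted p = 8.09e-06), and the chaperone gene Hspa9 by 0.67 in knockdown and 1.32 in control cells (difference -0.65, adjusted p = 1.22e-10). Vdac1, the outer membrane channel, fell by 0.85 in knockdown and 0.67 in control cells.

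Of 9 phospholipase C genes tested, 5 rose and 2 fell with thapsigargin in knockdown cells, and 5 rose and 3 fell in control cells. Of all genes 69.8% were called in knockdown (35.4% up, 34.4% down) and 74.7% in control cells (37.7% up, 37% down). Some of those that rose were near the floor. Over the 7 whose mean reached 5 CPM in some group, the median log2 change was -0.06 in knockdown and 0.20 in control cells. Plcb1 was lower in knockdown than in control cells in both treatments, with 17.6 ± 1.9 CPM in Sh2-Thap, 40.8 ± 0.8 CPM in Ctrl-Thap, 11.2 ± 1.7 CPM in Sh2-DMSO and 27.4 ± 1.5 CPM in Ctrl-DMSO (log2 -1.21, adjusted p = 2.56e-14 with thapsigargin, and -1.28, adjusted p = 8.79e-14 with DMSO). Plcd3 rose by 0.97 in knockdown and 0.35 in control cells (difference 0.62, adjusted p = 7.89e-09), while Plcg1 fell by 0.54 in knockdown and 1.0 in control cells (difference 0.46, adjusted p = 1.28e-05). Plcb4 rose by 0.74 in knockdown and 0.95 in control cells. Plcb3 fell by 0.47 in knockdown and 0.56 in control cells, and Plcd1 fell by 0.64 in control cells and had -0.10 (adjusted p = 0.184) in knockdown cells.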
